A study of Mus musculus with 4 samples.

Results

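Colon tissue of C57BL/6 mice was sequenced with 2 library protocols, and the 2 resulting libraries, of 4 in the series, are compared here. Both came from total colon tissue that had been frozen in liquid nitrogen. For the cDNA fragmented library, poly(A) RNA went through SMART cDNA synthesis, in which oligo-dT primes reverse transcription, the cDNA is amplified and only then broken up. The RNA fragmented library was made with a whole transcriptome kit from RNA depleted of ribosomal RNA, which was fragmented first and then joined to adaptors that keep the strand. The other 2 libraries repeat the pair of protocols in small intestine of the same strain and serve only as a second look at the same contrast. The mice were 9 to 10 weeks old and the colon tissue was distal, per the study's methods. Those methods also state an enrichment of poly(A) RNA for the RNA fragmented protocol, where the labels give depletion of ribosomal RNA, and they name different RNA isolation kits for the 2 protocols. The study also lists far more reads for its RNA fragmented colon library than the one analysed here holds. Its methods may therefore describe another library. The 2 libraries compared here are not stated to come from the same mice. There was 1 library a side and no replicate, so no test was made. Counting intervals (95%, exact) cover the sampling of reads only, and fragmentation, RNA selection, RNA isolation, sequencer and animals cannot be told apart in this pair. In whole tissue, fewer cells of a type and less RNA per cell cannot be told apart either.

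Of 83302412 reads of the cDNA fragmented library, 24798934 (29.8%) were placed uniquely on exons or splice junctions. Of 37466674 reads of the RNA fragmented library, 3478387 (9.28%) were. The study lists the same total for its cDNA fragmented colon library but a far larger one for its RNA fragmented colon library. Reads were counted on 21049 genes, and levels are given as RPKM, reads scaled to exon length and to the uniquely placed reads of the library. The strand of the gene held 48.3% of reads in the cDNA fragmented and 98.6% in the RNA fragmented library. Both libraries carried the markers of colon. Car1, a carbonic anhydrase of colonocytes, reached 52340 and 5915 RPKM, and Hoxb13, a homeobox gene of the hindgut, reached 46.0 and 18.8 RPKM in the cDNA and RNA fragmented library, against at most 0.0339 RPKM for Hoxb13 in small intestine. The Y-linked genes Eif2s3y, Ddx3y, Kdm5d and Uty were read in both colon libraries, with 451 to 1191 reads in the cDNA fragmented and 131 to 341 in the RNA fragmented library. In small intestine they had at most 0.182 RPKM in the cDNA fragmented and 9.00 to 12.03 RPKM in the RNA fragmented library, and Xist, expressed from the inactive X chromosome, had 3.97 and 0.225 RPKM there. Values of the small intestine pair below carry that difference too.

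Depletion and poly(A) selection keep different RNAs. Poly(A) tails are added to most messenger RNAs and to many long noncoding RNAs, and oligo-dT retains only such molecules. Small nucleolar RNAs, which guide chemical modification of ribosomal RNA, are cut out of introns and carry no tail. Replication-dependent histone mRNAs are the known exception among messengers, since they end in a short stem-loop. Depletion of ribosomal RNA leaves all of these in the sample. Reverse transcription from the tail also starts at the 3′ end, so that the 5′ parts of long messages are reached less often.

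The sequences below are those of small nucleolar RNAs that led the list of genes higher in the RNA fragmented library, and they show what kind of molecule it was. They are printed 5′ to 3′ from the NCBIM37 (mm9) assembly, with the C box (TGATGA) and D box (CTGA) of this RNA family in capitals, or the ACA near the 3′ end of the H/ACA family member Snora7a. In Snord34 no exact TGATGA was found, and the D box alone is marked.
Snord34 (chr7:52381973-52382038, minus strand): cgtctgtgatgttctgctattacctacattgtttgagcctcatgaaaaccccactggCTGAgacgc
Snord32a (chr7:52382753-52382833, minus strand): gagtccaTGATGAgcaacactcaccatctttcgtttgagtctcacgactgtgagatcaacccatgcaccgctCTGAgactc
Snord82 (chr1:88252835-88252902, minus strand): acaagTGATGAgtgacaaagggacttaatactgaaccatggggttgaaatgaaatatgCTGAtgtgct
Snord95 (chr11:48616641-48616708, plus strand): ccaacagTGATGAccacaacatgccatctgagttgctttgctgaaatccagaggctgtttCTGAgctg
Snora7a (chr6:115757994-115758121, minus strand): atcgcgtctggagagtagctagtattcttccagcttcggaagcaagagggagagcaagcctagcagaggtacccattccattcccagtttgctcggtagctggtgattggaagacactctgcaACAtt
Searched on the gene's strand, TGATGA within the first 20 bases together with CTGA within the last 20 was found in 28 of 97 small nucleolar RNA genes (28.9%). Among 99504 other exon blocks of 60 to 150 bases, 111 (0.112%) held both.

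Across the 12554 genes with a mean of at least 1 RPKM over the 2 colon libraries, 2033 (16.2%) were 3-fold higher in the RNA fragmented and 1292 (10.3%) 3-fold higher in the cDNA fragmented library. The rule asked for a level at least 3 times that in the other library plus 1 RPKM. The median log2 ratio of RNA over cDNA fragmented, with 1 RPKM added to each level, was 0.42, and list values below are given relative to this median. Scaling the libraries by the median of ratios instead turned the split to 1030 higher in the RNA fragmented and 2108 higher in the cDNA fragmented library, so the balance of the 2 directions depended on the scaling. Spearman's rho of the levels across genes, which are not independent, was 0.64 between the 2 protocols in colon. It was 0.88 between colon and small intestine within the cDNA protocol and 0.79 within the RNA protocol. The plot of levels in the 2 colon libraries shows how far the gene groups described below lay from equal levels.

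**Figure D1:**
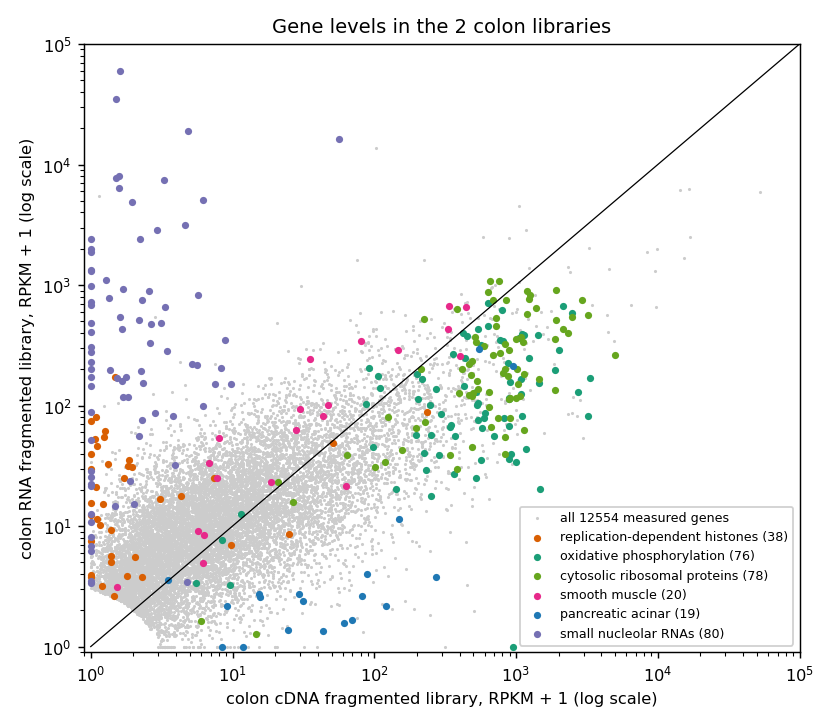
Levels in the cDNA fragmented (x axis) and RNA fragmented (y axis) colon library, in RPKM + 1 on log scales, with 1 point per measured gene and the diagonal marking equal levels. Most small nucleolar RNAs lie near the left edge, up to 59340.5 RPKM on the y axis, while pancreatic acinar, ribosomal protein and oxidative phosphorylation genes lie mostly below the diagonal.

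Small nucleolar RNAs were read almost only in the RNA fragmented library. Of 100 genes annotated as such, 48 had no read in the cDNA fragmented library and none had more than 100, although that library held the larger number of reads. In the RNA fragmented library 20 had no read, and 79 of the 100 had the higher RPKM there against 2 in the cDNA fragmented library. At least 1 RPKM was reached by 33 in the cDNA fragmented and by 80 in the RNA fragmented library, and of the 80 that passed the filter 77 met the 3-fold rule, with none in the other direction. Since most of them passed it through the library where they are high, this count is a description only. Their median log2 ratio was 6.76 above that of all genes, and 7.395 above it in the small intestine pair.

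Snord34, which lies within the ribosomal protein gene Rpl13a, had 1 read in the cDNA fragmented and 13623 reads in the RNA fragmented library, or 0.611 and 59340.5 RPKM. The ratio of the RPKM was 97124, with a counting interval of 17429 to 3836480. Snord32a of the same host had 1 and 2187 reads, and Snord82, from the nucleolin gene Ncl, had 1 and 1916. The H/ACA family member Snora7a had 3 and 2177 reads, and SNORD73 had 0 and 598, which made it at least 1421-fold higher in the RNA fragmented library at a floor of 3 reads. AC102570.1 had 7 and 4872, Snord95 had 1 and 1498 and Snord4a 4 and 1800. Snord104 had most reads of the class in the cDNA fragmented library, with 100 reads against 4099. Each of these genes was far higher in the RNA fragmented library, also where single reads set the lower value.

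Reads on these genes began at few positions. Of the 13623 reads of Snord34, 12414 shared 1 start point, 2 bases from the annotated 5′ end of the RNA. Among 46 small RNAs with at least 20 reads in the RNA fragmented library, the position with most reads lay within 2 bases of the annotated 5′ end in 22. RNase_MRP, the RNA of the enzyme that processes ribosomal RNA precursors, had 1 read in the cDNA fragmented and 5265 in the RNA fragmented library, and these began at 161 positions. It shares 45.1% of its exon bases with another gene. Snord34, Snord95 and Snord4a lie wholly within exons annotated to another gene, and Snord32a shares 96.3% of its bases with one, so their counts are uncertain in that respect.

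The genes around these small nucleolar RNAs were counted separately. Of 16 measured genes that hold a small nucleolar RNA counted on a block of its own, none was 3-fold higher in the RNA fragmented library and 7 were 3-fold higher in the cDNA fragmented library, beside 16.2% and 10.3% of all genes. Ribosomal protein genes, which were often called in that direction, are among the 7. Rpl13a, around Snord34, had 1138 RPKM in the cDNA fragmented and 182 RPKM in the RNA fragmented library. Gas5 is a noncoding gene whose counted exon block itself spans small nucleolar RNAs. It had 74.6 and 1627 RPKM, but 14435 of its 14454 reads in the RNA fragmented library (99.9%) began inside 6 small nucleolar RNAs that a long exon block of Gas5 spans, against 93 of 4724 reads (1.97%) in the cDNA fragmented library. Without these stretches Gas5 stood at 88.1 RPKM in the cDNA fragmented and 2.58 RPKM in the RNA fragmented library. In all, 71 small RNAs lay whole inside exon blocks, and together they held 397 reads (0.00160%) of the cDNA fragmented and 65989 reads (1.90%) of the RNA fragmented library.

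Replication-dependent histone genes, which package newly made DNA, were mostly higher in the RNA fragmented library. Of 67 genes, 43 had the higher RPKM there, 7 had it in the cDNA fragmented library and 17 had no read in either. Only uniquely placed reads were counted, so a gene with no read may still be expressed if another gene shares its sequence. Of 38 that passed the filter, 26 met the 3-fold rule towards the RNA fragmented and none towards the cDNA fragmented library (68.4% and 0%, beside 16.2% and 10.3% of all genes), with a median 2.81 above that of all genes (3.62 in small intestine) and 1.78 above it with no filter. Many of the 38 passed the filter through the RNA fragmented library. Hist2h2bb had 6 and 293 reads, or 0.491 and 171 RPKM, a ratio of 348 with an interval of 158 to 956. Hist1h3h had 1 and 135 reads, and Hist1h2bk had 0 and 98, at least 233-fold higher at the floor of 3 reads.

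Some histone genes lay close to equal levels or below. Hist1h2bc had 4218 and 222 reads, or 234 and 87.7 RPKM, and Hist1h1c had 50.1 and 48.3 RPKM. Hist2h2be had 8.75 and 5.93 RPKM. The 3′ ends of genes from both sides are printed here in mm9 coordinates, with the paired bases of the stem, or the poly(A) signal AATAAA, in capitals.
Hist2h2bb (chr3:96074087-96074115, plus strand): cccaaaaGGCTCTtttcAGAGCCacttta
Hist1h3g (chr13:23627751-23627778, plus strand): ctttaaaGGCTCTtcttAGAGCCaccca
Hist1h2bc (chr13:23784320-23784349, plus strand): gatgtatatatAATAAAtgtcatgtaaagc
A stem of 6 paired bases beginning with GG around a loop of 4 bases was found, on the gene's strand, in the last 100 exonic bases of 10 of the 38 measured histone genes. All 10 were 3-fold higher in the RNA fragmented library, and so were 16 of the 28 in which no such stem-loop was found. Of these 16, Hist1h2ac, Hist1h2be, Hist1h2bg, Hist1h3f and Hist1h4i held a matching stretch further from the counted end. So did Hist1h1c, Hist1h1d, Hist1h2ae, Hist3h2a and Hist2h3c2, which were measured but not called. The block of Hist1h4c has only 312 bases. The counted ends may not be those of the mRNAs, so the search cannot tell a missing stem-loop from a missed one. The stem-loop genes Hist2h2aa1 and Hist2h2aa2, with no uniquely placed read in the RNA fragmented library, did not pass the filter. The counts over measured genes are therefore a description only. The limit of the counted ends holds for AATAAA too. It stood in the last 40 bases of 4 of the 38, and none of these 4 was 3-fold higher. In the other 11855 measured protein coding genes on the chromosomes searched the shares were 0.194% for the stem-loop and 57.6% for AATAAA. Of 6 measured replacement histones, whose mRNAs are polyadenylated, 2 were called in the cDNA fragmented library (33.3%, beside 10.3% of all genes). Their median was -1.42 relative to all genes, and -0.92 against genes of the same length. H2afz, which encodes the variant H2A.Z, had 838 and 108 RPKM.

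Among long noncoding RNAs, Malat1, a nuclear RNA without a conventional tail, had 66.7 and 509 RPKM in the cDNA and RNA fragmented library, a ratio of 7.63 (interval 7.44 to 7.83). Neat1, its neighbour on the chromosome, went the other way in colon, with 237 and 84.8 RPKM, and had 30.1 and 137 RPKM in small intestine. Rian, an imprinted noncoding RNA, had 1.71 and 14.7 RPKM, while the host transcripts Snhg3 and Snhg12 had 47.3 and 2.63, and 11.98 and 0.474 RPKM. Of 11 measured members 3 were called in each direction (27.3%, beside 16.2% of all genes in the RNA fragmented and 10.3% in the cDNA fragmented library). Gas5, described above, is among the 3 called in the RNA fragmented library, where its reads began almost only inside small nucleolar RNAs. Without these stretches it stood at 88.1 RPKM in the cDNA fragmented and 2.58 RPKM in the RNA fragmented library. The even split therefore rests in part on reads of small nucleolar RNAs.

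Calls were then counted by gene length, where 16.2% of all genes were called in the RNA fragmented and 10.3% in the cDNA fragmented library. Among protein coding genes of up to 500 exonic bases, 94 of 182 measured were 3-fold higher in the cDNA fragmented and 23 in the RNA fragmented library. Of those of over 500 to 1000 bases, 401 of 880 were higher in the cDNA fragmented and 30 in the RNA fragmented library. Above 5000 bases the counts turned to 12 and 520 of 1989. The medians relative to all genes went from -2.24 through -1.93 and -0.08 to 0.78 over the 4 classes, and the small intestine pair gave -2.24, -1.86, -0.13 and 0.87, also relative to its own median. Of 560 genes of up to 500 bases that do not code for protein 134 were measured, and 99 of these were 3-fold higher in the RNA fragmented library. Many of them are small nucleolar RNAs that passed the filter through that library, so this count is a description only. Counting only the last 1000 exonic bases, which lie near the primed end, brought the median of genes over 5000 bases from 0.78 to 0.20. Genes of up to 1000 bases lie wholly within these bases, so this count says nothing about them.

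**Figure D2:**
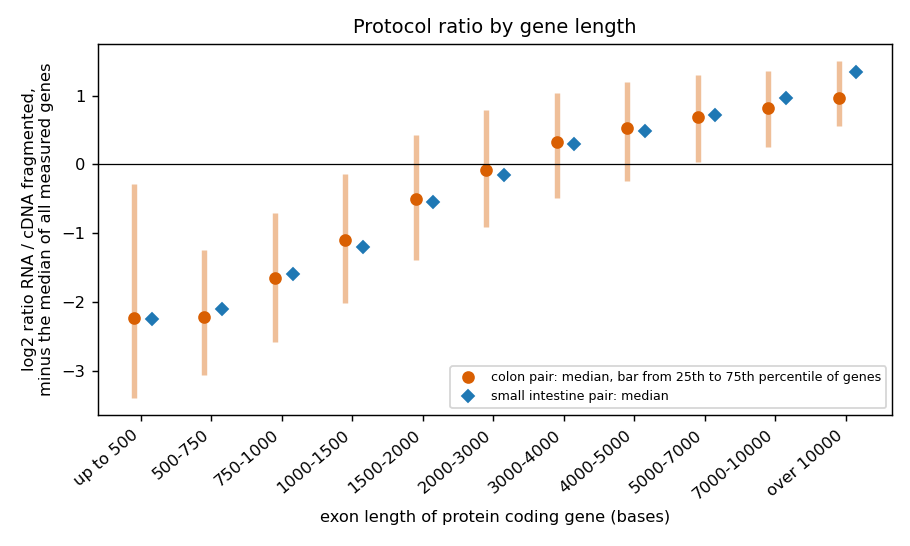
Log2 ratio of RNA over cDNA fragmented, minus the median of all measured genes (y axis), for protein coding genes in 11 bins of exon length in bases (x axis). Circles are medians in the colon pair with bars from the 25th to the 75th percentile of genes, and diamonds are medians in the small intestine pair. The colon medians climb from -2.24 in the shortest to 0.97 in the longest bin.

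Coverage along the transcript differed most in the long genes. In genes over 5000 bases the part before the midpoint held a mean of 26.3% of a gene's reads in the cDNA fragmented library (2293 genes) and 49.6% in the RNA fragmented library (2131 genes). The last 10% of the length alone held 25.9% and 9.60%. In genes of over 1000 to 5000 bases the part before the midpoint held 35.5% and 47.9%. In genes of over 500 to 1000 bases the 2 libraries were close, at 40.1% and 41.4% before the midpoint. The small intestine libraries gave 27.6% and 49.4% before the midpoint for the genes over 5000 bases.

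**Figure D3:**
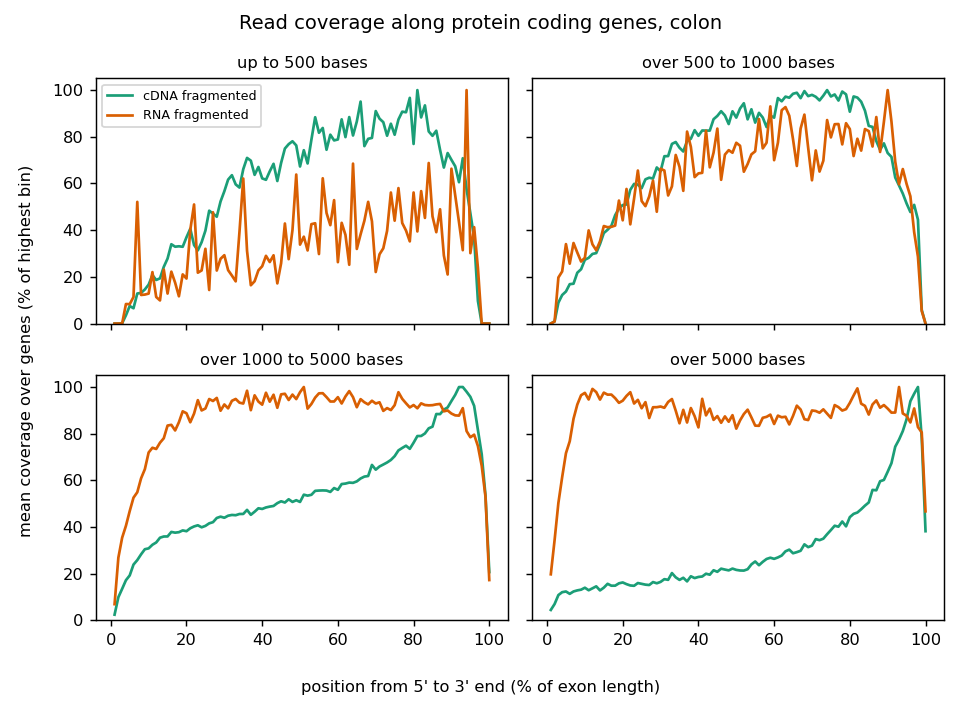
Mean read coverage from the 5′ to the 3′ end of protein coding genes (x axis, percent of exon length) in the 2 colon libraries, as percent of the highest of 100 bins (y axis), in 4 classes of exon length. Genes with at least 20 reads count equally. In genes over 5000 bases the cDNA fragmented line stands at 21.7% at mid-length and the RNA fragmented line at 82.2%.

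Base composition was compared as well. Protein coding genes of at least 60% GC had a median 1.13 above that of all genes. Of 589 measured, 239 (40.6%) were higher in the RNA fragmented and 27 (4.58%) in the cDNA fragmented library, beside 16.2% and 10.3% of all genes. The class of 55 to 60% GC stood at 0.27 in colon and 0.65 in small intestine, while colon classes between 40% and 55% lay between -0.23 and -0.01. Genes below 40% GC stood at 0.26 in colon and -0.29 in small intestine, so the order was not the same over the whole range of GC. Among genes of 2000 to 4000 bases alone, the class of at least 60% GC stood at 1.37 and that of 45 to 50% at -0.16, so the difference was present at like length. In small intestine these 2 values were 1.94 and -0.35.

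Short housekeeping messages were the counterpart of the small RNAs. None of the 76 measured genes of oxidative phosphorylation, which encode the nuclear subunits of the respiratory chain and ATP synthase, was 3-fold higher in the RNA fragmented library, and 47 were 3-fold higher in the cDNA fragmented library (61.8%, beside 10.3% of all genes). Uqcr10, a subunit of complex III, had 35383 reads (3235 RPKM) in the cDNA fragmented and 124 (80.8 RPKM) in the RNA fragmented library, a ratio of 40.02 (33.6 to 48.1). Atp5e, a subunit of ATP synthase, had 15150 and 28 reads, or 1476 and 19.4 RPKM. Cox8a, of complex IV, had 2496 and 582 RPKM, a smaller gap. Of 78 cytosolic ribosomal protein genes 45 (57.7%) were higher in the cDNA fragmented and none in the RNA fragmented library. Rps27 had 5026 and 262 RPKM, and Rpl4, a longer member, 1384 and 640 RPKM.

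The gap was smaller against genes of the same length, a reference added after values were seen. This reference includes the list's own genes, and the 2 shortest bins held only 182 and 372 measured genes. Part of the smaller gap may therefore come from the reference itself. Against protein coding genes of the same length bin, the median of the oxidative phosphorylation list was -0.94 rather than -2.75 and that of the ribosomal proteins -0.36 rather than -2.20.

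The 10 genes highest in the cDNA fragmented library by the penalised ratio, with at least 20 reads at 10 positions there, were mostly short. D8Ertd738e had 7209 and 2 reads, a ratio of 506 with an interval of 140 to 4176. Ubb, which encodes polyubiquitin, had 12995 and 9 reads, or 450 and 2.22 RPKM. Selk, a selenoprotein gene, had 4148 and 5 reads, and Dpy30, of histone methyltransferase complexes, 3652 and 4. Ndufa2, a subunit of complex I, had 5585 reads and none in the RNA fragmented library, at least 261-fold higher at the floor of 3 reads. Prickle4 had 788 reads and none, but all of its counted bases are shared with another gene. Atp5e, Cela2a, the pseudogene Gm1821 and 1 block set without a gene name made up the rest. In the small intestine pair 850 of the 1258 genes called in this direction and measured there (67.6%) were called the same way, beside 11.1% of all genes there, and 19 the opposite way. Towards the RNA fragmented library it was 1206 of 1929 (62.5%), beside 15.8% of all genes there, with none opposite.

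Protein coding genes higher in the RNA fragmented library, named here after their values were seen, included Lars2, the mitochondrial leucyl-tRNA synthetase. It had 9854 and 186260 reads, or 102 and 13797 RPKM, and took 5.35% of the RNA fragmented library. All but 30 of these reads lay in its last exon block of 1166 bases (chr9:123370617-123371782, mm9), and 10 start points held 81694 of them. Its other exons had 4.95 and 3.18 RPKM, so outside the last exon Lars2 was not higher. The origin of the pile-up was not tested. Dag1, dystroglycan, had 3.64 and 146 RPKM, and Fads2, a fatty acid desaturase, 2.73 and 127 RPKM. In small intestine Dag1 had 2.85 and 81.8 RPKM and Fads2 2.09 and 27.0 RPKM, in the same direction.

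Smooth muscle genes, which build the contractile layer of the gut wall, showed calls in the RNA fragmented library alone. Of 20 measured members 6 met the 3-fold rule there (30%, beside 16.2% of all genes) and none in the other direction, with a median 0.56 above that of all genes. Des, the intermediate filament desmin, had 34.4 RPKM in the cDNA fragmented and 241 RPKM in the RNA fragmented library, a ratio of 7.01 (6.56 to 7.48). Cnn1, calponin, had 79.6 and 343 RPKM. The actins lay closer together. Acta2 had 331 and 429 RPKM, Actg2 338 and 667 RPKM, and Myl9, a myosin light chain, 405 and 255 RPKM.

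Against genes of the same length the smooth muscle median was 0.31, and the calls depended on counting and scaling. Under the median of ratios 3 members were higher in the RNA fragmented and 1 in the cDNA fragmented library. All genes gave 1030 and 2108 of 12500 there. Counting the last 1000 bases left 1 in each direction, beside 1103 and 1491 of 12560 genes. With start points 1 of 20 was higher in the RNA and none in the cDNA fragmented library, beside 1231 and 1478 of 14034 genes. In small intestine the median was -0.09, with 2 of 19 members higher in the RNA fragmented library, beside 15.8% of all genes there. Skeletal muscle genes were low, with 6 of 15 measured, 2 of these higher in the cDNA fragmented and none in the RNA fragmented library (33.3% and 0%, beside 10.3% and 16.2% of all genes). Their median was -2.15, but -0.24 against genes of the same length and -0.49 with no filter. Ckm, muscle creatine kinase, had 11.8 and 15.6 RPKM with part of its exons shared with another gene, Mylpf had 6.78 RPKM in the cDNA fragmented library and no read in the other, and the myosin heavy chain genes Myh2, Myh4 and Myh7 had no read in either.

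Genes shared by intestinal epithelial cells were called about as often as all genes. Of 16 members, all measured, 3 were 3-fold higher in the RNA fragmented and 2 in the cDNA fragmented library (18.8% and 12.5%, beside 16.2% and 10.3% of all genes), with a median of -0.14. Krt20, a keratin of differentiated surface cells, had 2503 and 116 RPKM, a ratio of 21.5 (20.03 to 23.1) in favour of the cDNA fragmented library. Krt8, a keratin of all simple epithelia, had 580 and 2485 RPKM in the cDNA and RNA fragmented library, and Krt19 had 895 and 2441 RPKM. Epcam, an adhesion molecule of epithelia, had 471 and 530 RPKM. Keratins thus lay on both sides. Under the median of ratios the list held 1 call in the RNA fragmented and 4 in the cDNA fragmented library. All genes gave 1030 and 2108 of 12500 there. With start points the list held no call, beside 1231 and 1478 of 14034 genes.

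Colonocyte genes were called in both directions, 5 of 15 in the RNA fragmented and 4 in the cDNA fragmented library (33.3% and 26.7%, beside 16.2% and 10.3% of all genes). Car1, Guca2a, Car2 and Car4, of 560 to 1790 bases, were 3-fold higher in the cDNA fragmented library, and Guca2a, the precursor of guanylin, had 16974 and 2487 RPKM. Slc9a3, Scnn1a, Slc26a2, Atp12a and Slc5a8, which are ion and solute transporters of 2490 to 5331 bases, were 3-fold higher in the RNA fragmented library. Slc9a3, the apical sodium-proton exchanger NHE3, had 71 and 379 reads, or 1.15 and 43.8 RPKM. Scnn1a, the alpha subunit of the epithelial sodium channel, had 1.79 and 30.8 RPKM. The median of the 15 members was -0.45, and -0.37 against genes of the same length. Under the median of ratios 4 were higher in the RNA and 6 in the cDNA fragmented library, beside 1030 and 2108 of 12500 genes. With start points 2 were higher in the RNA and none in the cDNA fragmented library, beside 1231 and 1478 of 14034 genes.

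Goblet cell genes were also called in both directions, 6 of 13 in the RNA fragmented and 4 in the cDNA fragmented library (46.2% and 30.8%, beside 16.2% and 10.3% of all genes). Spink4, Agr2, Zg16 and Klk1, all of up to 876 bases, were 3-fold higher in the cDNA fragmented library. Agr2, a protein disulfide isomerase needed for mucin folding, had 15256 and 1685 RPKM. Clca3, Fcgbp, Spdef, Creb3l1, Sytl2 and Best2, all of 1824 bases or more, were 3-fold higher in the RNA fragmented library. Fcgbp, a large protein of mucus, had 102 and 429 RPKM, and Clca3 had 1040 and 4495 RPKM. The median of the 13 members was -1.03, and against genes of the same length it was 0.82. Under the median of ratios 2 were higher in the RNA and 5 in the cDNA fragmented library, beside 1030 and 2108 of 12500 genes. Over the last 1000 bases 3 and 4 were, beside 1103 and 1491 of 12560 genes. With start points none was in either, beside 1231 and 1478 of 14034 genes. Muc2 was not analysed here.

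Enteroendocrine, stem cell and cell cycle genes were called about as often as all genes or less (16.2% of all genes were called in the RNA fragmented and 10.3% in the cDNA fragmented library). Of 12 enteroendocrine genes Chga, chromogranin A, with 6.58 and 68.1 RPKM, and Insl5, a hormone of colonic endocrine cells, with 20.8 and 154 RPKM, were higher in the RNA fragmented library. The hormone genes Gcg and Pyy had 206 and 102, and 176 and 88.3 RPKM. Stem cell genes had a median of 0.84 with 1 of 9 called, Ephb3 at 1.55 and 10.3 RPKM. Their median was 0.37 against genes of the same length, and -0.03 in the small intestine pair. Of 19 cell cycle genes, with a median of -0.86, 1 was called, Rrm2, a subunit of ribonucleotide reductase, at 38.4 RPKM in the cDNA fragmented and 7.65 RPKM in the RNA fragmented library. Under the median of ratios 5 cell cycle and 4 enteroendocrine genes were called in the cDNA fragmented library, beside 2108 of 12500 genes.

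B and plasma cell genes held no call in colon. None of 13 measured members met the 3-fold rule in either direction, beside 16.2% and 10.3% of all genes, which is little evidence in so short a list. Igj, the joining chain of secreted antibodies, had 342 and 359 RPKM, a ratio of 1.05 (1.01 to 1.09), and Cd79a, of the B cell receptor, had 10.8 and 10.4 RPKM. In small intestine Igj had 3335 RPKM in the cDNA fragmented and 347 RPKM in the RNA fragmented library, and 4 of 13 members were higher in the former, beside 11.1% of all genes there.

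T cell and myeloid genes held most of their calls in the cDNA fragmented library. Of 12 measured T cell genes 3 were called in the cDNA fragmented library (25%, beside 10.3% of all genes) and none in the RNA fragmented library. Ccl5, a chemokine, had 370 and 8 reads, or 28.1 and 4.33 RPKM, and Lck, a T cell kinase, 7.91 and 1.38 RPKM. Cd4 had 112 and 35 reads, or 1.46 and 3.25 RPKM, on the other side of equality. Their median was -0.58, and -0.08 against genes of the same length. Of 17 myeloid genes 4 (23.5%) were called in the cDNA fragmented library. Tyrobp, a signalling adaptor, had 45.5 and 6.10 RPKM, Fcer1g, an Fc receptor chain, 25.9 and 3.06 RPKM, and Cd68, a lysosomal protein of macrophages, 16.1 and 2.57 RPKM, while Aif1 had 242 reads and none. C1qa, a complement component of macrophages, had 5.96 and 29.8 RPKM and was called in the RNA fragmented library. Under the median of ratios 8 myeloid genes were called in the cDNA fragmented library and none in the other. All genes gave 2108 and 1030 of 12500 under that scaling. In small intestine 7 of 16 T cell and 8 of 17 myeloid genes were higher in the cDNA fragmented library, beside 11.1% of all genes there, and none in the RNA fragmented library.

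Of 9 measured MHC class II genes, for antigen presentation, 1 was called in the cDNA fragmented library (11.1%, beside 10.3% of all genes). It was H2-DMa, at 36.8 and 10.7 RPKM. Cd74, the invariant chain, had 140 and 292 RPKM and H2-Aa 156 and 145 RPKM. Interferon-stimulated genes had a median of -1.24, and 4 of 13 were higher in the cDNA fragmented library (31%, beside 10.3% of all genes). Ifit3 had 8.17 and 0.576 RPKM, Usp18 24.1 and 3.73 RPKM, Isg15 38.8 and 8.75 RPKM and Ifit1 52.9 and 16.2 RPKM. The median against genes of the same length was -1.56. In small intestine 1 of 13 was called in the cDNA fragmented library, beside 11.1% of all genes there.

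**Figure D4:**
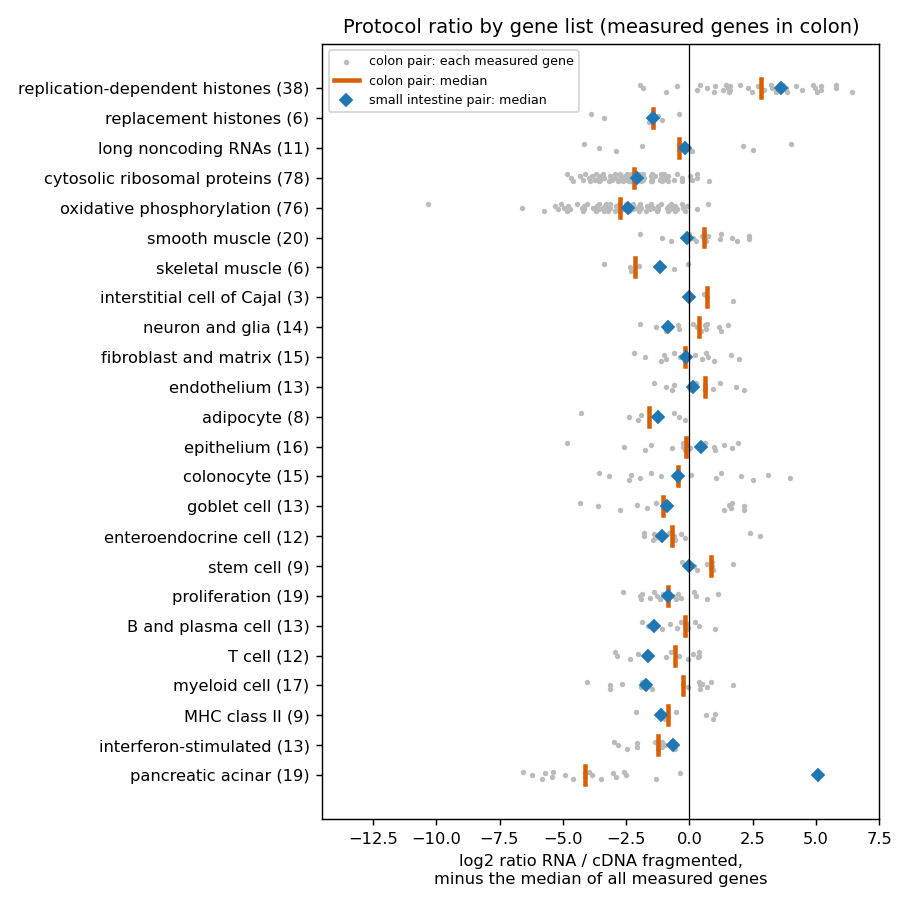
Log2 ratio of RNA over cDNA fragmented, minus the median of all measured genes (x axis), for 24 gene lists (y axis, number of genes measured in colon in brackets). Grey points are genes in the colon pair, orange bars their median and blue diamonds the median of the small intestine pair. Pancreatic acinar genes have medians of -4.12 in colon and 5.09 in small intestine, while histones, ribosomal proteins and oxidative phosphorylation genes have medians of like sign in both.

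Pancreatic acinar genes, which encode digestive enzymes made in the pancreas, were called in opposite directions in the 2 tissues. In colon 17 of 19 measured members were 3-fold higher in the cDNA fragmented library (89.5%, beside 10.3% of all genes) and none in the RNA fragmented library. In small intestine 16 of 20 were 3-fold higher in the RNA fragmented library, beside 15.8% of all genes there, and none in the cDNA fragmented library. Pnlip, pancreatic lipase, had 2229 reads (60.4 RPKM) in the cDNA fragmented and 3 reads (0.580 RPKM) in the RNA fragmented library of colon, a ratio of 104 (35.6 to 506), and 0 and 367 RPKM in small intestine. Ctrb1, chymotrypsinogen, had 80.6 and 1.62 RPKM in colon and 0.150 and 883 RPKM in small intestine. Cela1 and Sycn, the members with most reads in colon, had 544 and 291, and 947 and 210 RPKM there. The list took up 51695 reads (0.208%) of the colon cDNA fragmented and 1631 reads (0.0469%) of the colon RNA fragmented library.

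Genes of small intestinal enterocytes, a list added after other values were seen, also differed between the colon libraries. Apoa4, an apolipoprotein of chylomicrons, had 9 and 314 reads, or 0.218 and 54.2 RPKM, a ratio of 249 (129 to 549). Lct, lactase, had 4 and 89 reads, Sis, sucrase-isomaltase, 1.34 and 12.6 RPKM, and Apob 1.90 and 21.9 RPKM. Fabp2, a short gene for a fatty acid binding protein, had 4441 and 403 RPKM. Of 19 measured members 6 were higher in the RNA fragmented and 2 in the cDNA fragmented library (31.6% and 10.5%, beside 16.2% and 10.3% of all genes). Under the median of ratios 4 were higher in each, beside 1030 and 2108 of 12500 genes. In small intestine Apoa4 had 1010 and 3676 RPKM.

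Further lists covered other cell types and response genes. Of Kit, Ano1 and Etv1, which mark the pacemaker cells of the gut wall, only Ano1, a chloride channel, met the rule, with 12.7 RPKM in the cDNA fragmented and 59.7 RPKM in the RNA fragmented library, and none did under the median of ratios, with start points or over the last 1000 bases. Their median was 0.70, but 0.05 against genes of the same length. None of 14 neuron and glia genes was called, and Vip, a neuropeptide, had 38.8 and 84.3 RPKM. Of 8 measured fat cell genes 2 were higher in the cDNA fragmented library (25%, beside 10.3% of all genes), among them Car3 at 257 and 16.7 RPKM. Fibroblast (2 and 1 of 15), endothelium (2 and 0 of 13), circadian clock (2 and 0 of 14) and posterior Hox genes (1 and 0 of 9), given as calls in the RNA and cDNA fragmented library, were called no more often than all genes (16.2% and 10.3%). Of 330 microRNA precursor genes 307 had no read in the cDNA fragmented and 306 none in the RNA fragmented library, where the whole list held 161 reads, too few for a comparison. Of 12 immediate early genes 5 were higher in the RNA fragmented library (41.7%, beside 16.2% of all genes). The count was 2 under the median of ratios, 1 with start points and 1 over the last 1000 bases. Over all genes these settings gave 1030 of 12500, 1231 of 14034 and 1103 of 12560. The highest ratio was that of Jun, a transcription factor, at 3.92 and 46.6 RPKM, while Fos, its partner, had 24.9 and 12.8 RPKM.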

How the data were processed

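The deposited files, per the file headers, are SOLiD match files of 35-color reads matched to exons and junctions of mouse RefSeq genes (mm9), with up to 3 mismatches; their values, positions and mismatch numbers, are neither counts nor normalized. The labels give depletion of ribosomal RNA for the RNA fragmented libraries; the methods describe poly(A) enrichment, and the labels were followed. The study's methods name a tool version for matching to the whole genome, but none is given for these matches to exons and junctions. Uniquely placed reads were counted on 199684 exon blocks, joined to 21049 genes by overlap with GENCODE annotation of NCBIM37. Junction reads (0.820% and 0.815% of placed reads in the RNA and cDNA fragmented colon library) entered totals only. Python 3.11.15 with numpy 2.4.6, pandas 2.3.3, scipy 1.17.1 and matplotlib 3.10.9 was used, and the calling rule was tested on simulated data. For each direction the 10 called genes with the highest ratio of RPKM, 1 RPKM added to the lower side, were named, and from each list up to 4 members with most reads. Further list members named for their values were chosen after those were seen. Members and lists were chosen with earlier results of these data known. Structural RNA symbols of 1 list matched no gene, and annotation types were used instead, which, with the enterocyte list, the same-length reference and totals without small RNAs and Lars2, was decided after values were seen. Intervals are exact conditional binomial ones. Alternatives are given in the closing section. Some genes that met the rule for named genes or were seen among the highest are not reported here.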

Additional observations from a re-analysis of the deposited data

Results flagged for a closer look

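The pancreatic acinar list had opposite signs in the 2 tissues under the same protocol contrast. Its median log2 ratio of RNA over cDNA fragmented, relative to all genes, was -4.12 in colon and 5.09 in small intestine, and the 17 members called in colon and the 16 called in small intestine lay on opposite sides. With 1 library per tissue and protocol this difference was not tested.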

How the results depend on the processing

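No paired analysis was possible because each group holds 1 library. Of the genes called, 2033 in the RNA fragmented and 1292 in the cDNA fragmented library, the first count was 1030 under the median of ratios, 3277 with a pseudocount of 0.1 RPKM, 1231 with start points and 1103 over the last 1000 bases, and the second was 2108 under the median of ratios. Relative to the all-gene median, genes over 500 to 1000 bases (-1.89) stood at -2.11 with the pseudocount of 0.1, -0.87 with no filter, -1.20 with start points and -1.47 over the last 1000 bases, which hold these genes whole, so that this last value moved only with the all-gene median. Genes over 5000 bases (0.78) stood at 0.83 under the median of ratios, 1.0002 with the pseudocount of 0.1, 0.67 with no filter, 1.08 at a mean of at least 5 RPKM and 0.20 over the last 1000 bases. Histones (2.81) stood at 4.46, 3.76 and 4.63 with the pseudocount of 0.1, at a mean of at least 5 RPKM and against genes of the same length, and lower at 1.78 with no filter and 2.37 with start points. T cell genes (-0.58) stood at -2.73 at a mean of at least 5 RPKM, where 1 gene was left, and oxidative phosphorylation genes (-2.75) at -0.79 with start points and -0.94 against genes of the same length. Genes over 1000 to 5000 bases turned from -0.09 to 0.046 over the last 1000 bases, and enteroendocrine genes from -0.71 to 0.12 against genes of the same length. The number of start points cannot exceed the positions of a gene on both strands, so for short, abundant genes it says little of the level. Rps27, of 341 bases, had 42504 reads at 441 start points in the cDNA fragmented library. Ribosomal protein genes (-2.20) stood at -0.14 with start points. There 1 of 78 was called in the cDNA fragmented library, beside 1478 of 14034 genes. Small nucleolar RNAs listed by symbol (6.85) stood at 4.61 with start points. Against the length bins of protein coding genes they stood at 9.08, but these are not of like length. The shortest bin, up to 500 bases, has a median of 407 bases, and these RNAs have a median of 77. With start points colonocyte genes turned from -0.45 to 0.66, goblet cell genes from -1.03 to 0.89 and the epithelium list from -0.14 to 0.17, and goblet cell genes stood at 0.82 against genes of the same length. Fibroblast, endothelium, immediate early, anterior Hox, long noncoding RNA, MHC class II, B and plasma cell genes and the class of up to 500 bases also changed sign under at least 1 alternative. The cause of these differences, other than that named, was not tested. Low counts limit genes with under 10 reads in the RNA fragmented library, and with 1 library a side no spread between animals could be given.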
